A study of Mus musculus with 2 samples.

Results

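Trp53, the mouse gene for the p53 tumour suppressor, was described together with its restraints Mdm2 and Mdm4 and with 7 genes tied to p53-driven growth arrest or the wider stress response: Btg2, Ccng1, Gadd45a, Gadd45b, Gadd45g, Phlda3 and Zmat3. These 10 genes were picked by symbol, through the Ensembl identifiers of the deposited tables, out of 69691 rows, of which 21474 were matched protein-coding genes. The same identifiers gave 46 of the 129984 transcript rows. The cells were G1E-ER4, an immortalized mouse erythroid line. Its parent line has no working endogenous Gata1, and the ER4 clone carries GATA-1, the master regulator of red cell genes, fused to the hormone-binding part of the oestrogen receptor. Both libraries came from cells kept for 24 hours in 10 nM 17beta-estradiol, the hormone that activates the fusion and starts differentiation. They are biological replicates 1 and 2 per the labels, form 1 group, and represent 1 clonal line.

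No library of untreated cells was analysed here, so the values describe the induced state and measure no effect of the hormone. With 2 libraries in 1 group no gene could be tested, since 0.5 is the smallest p that exact flipping of 2 signs allows. Values are therefore given for each library, with the mean and SD over n = 2, and the SD measures only the spread between these libraries. The depth was 20412826 expected counts in the first library and 18564086 in the second, where an expected count is the number of reads assigned to a gene after ambiguous reads have been shared out. Levels are in TPM, transcripts per 1000000 after correction for transcript length, and CPM is the count per 1000000 without that correction. All 8 listed erythroid marker genes were over 1 TPM in both replicates, with a summed level of 101850 TPM in replicate 1 and 117302 TPM in replicate 2. Most of that sum was Hbb-bs, at 61175 and 69726 TPM, and Hba-a2, at 35824 and 42224 TPM. Gata1, at 2714 and 3180 TPM, is also among the 8. Its reads cannot be told here from those of the fusion, so its detection does not speak to identity. Of the mast cell, granulocyte and macrophage, lymphoid, and fibroblast and endothelial markers, 0 genes reached 1 TPM in both libraries, and no such list summed to more than 0.45 TPM. Of 5 megakaryocyte markers 4 were detected, with sums of 56.1 and 61.9 TPM. The part of such cells in the levels below was not tested. In bulk RNA, few cells with much transcript and many cells with little cannot be told apart.

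The p53 protein is a transcription factor that is made continuously and kept low by destruction. MDM2 is the ubiquitin ligase that marks p53 for destruction, and MDM4, its relative, binds p53 and works with MDM2. Stress signals release p53 from this pair, and p53 then switches on genes of growth arrest, repair and cell death as well as Mdm2 itself, which closes a feedback loop. Red cell maturation ends in exit from the cell cycle, and excess p53 activity is known to harm erythroid cells when ribosome production fails.

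The transcripts of Trp53 differ at the end of the reading frame, and the letters that differ are shown because the reads were split between both ends. In the following sequences of the plus strand of chromosome 11 (GRCm38, GENCODE M21 transcripts), lower case marks the last 24 bases of the exon that both forms share and capitals mark the coding bases of the last exon.
Trp53-202, alternative end: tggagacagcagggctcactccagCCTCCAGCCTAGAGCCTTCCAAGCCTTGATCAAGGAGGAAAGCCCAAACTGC
Trp53-201, regular end: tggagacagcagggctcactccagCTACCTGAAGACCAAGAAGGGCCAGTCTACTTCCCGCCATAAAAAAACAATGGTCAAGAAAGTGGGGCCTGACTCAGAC
The alternative last exon starts 96 bases earlier, at position 69591254 instead of 69591350, and adds 52 coding bases, against 79 in the regular form. The stop codons are not shown.

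In Mdm4, exon 6 decides whether a full-length protein can be made: it is 68 bases long, not a multiple of a codon, and the form that skips it, known as Mdm4-S, shifts the reading frame. The exon lies at chr1:133004654-133004721 on the minus strand (GRCm38), and is given in capitals with 20 bases of each neighbouring exon.
Mdm4-210, exon 6: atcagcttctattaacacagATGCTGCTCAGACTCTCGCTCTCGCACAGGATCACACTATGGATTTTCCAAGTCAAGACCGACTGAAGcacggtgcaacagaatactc

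The p53-responsive promoter of Mdm2 is known to lie in its first intron. A stretch of that intron shortly before exon 2 is shown because it is part of a listed transcript, Mdm2-207, and holds p53 elements; capitals mark each pair of p53 half-sites found with up to 3 mismatches in 20 bases and no spacer, at chr10:117710047-117710144 on the minus strand (GRCm38).
Mdm2, first intron: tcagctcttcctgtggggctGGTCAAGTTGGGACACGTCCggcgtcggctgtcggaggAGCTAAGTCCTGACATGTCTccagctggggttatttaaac
The pairs started 96 and 58 bases before exon 2, with 3 mismatches each, within the 264 bases of intron that Mdm2-207 covers. At least 2 such matches, overlapping ones included, were present in 0.359% of 32851 promoters trimmed to that length. The intron stretch was picked because it holds such elements, so this share is no test of it.

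The RefSeq promoter table (GRCm38.p6, 250 bases before to 50 after the start) held 10 windows for 9 of the genes. A full p53 half-site, searched by its 10-base consensus, which reads alike on both strands, occurred in 4 of them, against 8.36% of all 32851 promoters. The windows belong to Ccng1, Gadd45a, Mdm2 and Trp53, and the matches are in capitals with 10 bases on each side. Their positions are chr11:40755452-40755481 on the minus strand for Ccng1, chr6:67037428-67037457 on the minus strand for Gadd45a, chr10:117710925-117710954 on the minus strand for Mdm2 and chr11:69580274-69580303 on the plus strand for Trp53.
Ccng1: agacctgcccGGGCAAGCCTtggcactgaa
Gadd45a: ggttggctgaGGGCTAGCCCcatatctccg
Mdm2: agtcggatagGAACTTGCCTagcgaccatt
Trp53: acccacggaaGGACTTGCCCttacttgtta
The matches began 185 bases before the start in Ccng1, 40 in Gadd45a, 186 in Mdm2 and 75 in Trp53. A pair of half-sites with up to 3 mismatches, which can overlap a full half-site, occurred in 4 windows, those of Ccng1, Gadd45a, Mdm4 and Trp53, against 6.29% of all promoters. The GATA motif, AGATAA or TGATAA on either strand, was in 0 of the 10 windows, against 18.6% of all promoters. A match describes letters alone, and these libraries do not measure binding.

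Of the 10 genes, 9 were detected, which here means 1 TPM or more in both libraries, and the same call covered 41.2% of all protein-coding genes. The median level of the 10 genes was 32.8 TPM, against 0.08 TPM over all 21474 protein-coding genes. Among detected genes alone the medians were 38.6 TPM for 9 members and 20.8 TPM for all. The genes stood in the same order in both libraries: Trp53, Btg2, Gadd45a, Mdm4, Mdm2, Gadd45g, Phlda3, Ccng1, Zmat3 and Gadd45b. Every neighbouring pair in that order had TPM ranges that did not overlap between the libraries, except Phlda3 and Ccng1.

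**Figure D1:**
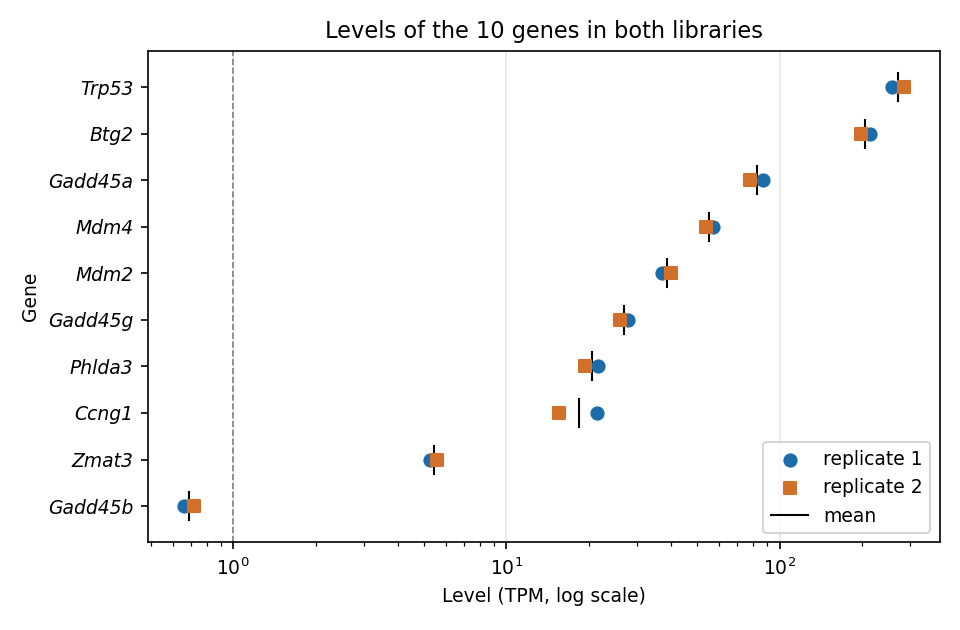
Level of each gene in TPM on a log scale, with circles for replicate 1, squares for replicate 2, black bars for the mean and a dashed line at 1 TPM. Trp53 and Btg2 lie near or above 200 TPM, Gadd45b lies left of the line, and Ccng1 has the widest gap between its symbols.

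Trp53 (chr11:69580359-69591873, plus strand) had the highest level of the set, 257 TPM in replicate 1 and 284 TPM in replicate 2, or 271 ± 19.1 TPM (SD, n = 2). The reads behind it were 7314 and 7422 expected counts. It ranked 426 of 21474 protein-coding genes, above 98.0% of them. Its relatives were not expressed at a level these libraries could see: Trp63 had 0 counts in both, which allows up to 0.147 and 0.162 CPM at a floor of 3 counts, and Trp73 had 1 and 0 counts. These floors cover counting error only.

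Most Trp53 reads came from coding transcripts, which held 94.9% and 95.5% of its expected counts. The transcript with the alternative end printed above, Trp53-202, had 1597 and 1754 expected counts, and the other transcript with that end, Trp53-206, had 0 in both libraries. By TPM the alternative end made up 22.5% of coding Trp53 in replicate 1 and 24.2% in replicate 2, or 23.4% ± 1.199 (SD, n = 2). This form, known in mouse as the alternatively spliced or AS form, lacks the regular tail of the protein that regulates DNA binding. The regular end had 5343 and 5337 expected counts, which is 77.5% and 75.8% of the coding TPM. Its reads were divided between Trp53-201 and Trp53-203, which differ in length by 1 base, at 2851 and 2492 in replicate 1 and at 1665 and 3672 in replicate 2. The deposited posterior SD of these counts was between 1154 and 1344, so the split between this pair cannot be read, while that of Trp53-202 was 160 and 147 counts. The noncoding Trp53-205, 3275 bases long, held 355 and 331 expected counts, or 2.65% and 2.45% of the gene's TPM.

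Mdm2 (chr10:117688875-117710758, minus strand) reached 37.2 TPM in replicate 1 and 39.99 TPM in replicate 2, or 38.6 ± 1.99 TPM (SD, n = 2). Its expected counts were 1306 and 1025. The level per gene and the reads pointed opposite ways between the libraries: the log2 difference of replicate 2 minus replicate 1 was 0.11 by TPM and -0.21 by CPM, and the 95% Clopper-Pearson interval of the CPM difference was -0.33 to -0.09. The average effective length assigned to the gene was 2189 bases in replicate 1 and 1754 bases in replicate 2.

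The Mdm2 transcripts that differed by the most expected counts between the libraries were not of the protein-coding class. Mdm2-204, a retained-intron transcript of 919 bases, had 86.2 expected counts in replicate 1 against 238 in replicate 2, and its share of the gene's TPM was 16.3% and 46.1%. Mdm2-209, which lacks exon 1 and is annotated as a target of nonsense-mediated decay, had 376 and 21.01 expected counts. The deposited posterior SD was 74.1 and 61.8 counts for Mdm2-209, and 27.5 and 22.96 counts for Mdm2-204. The 2 protein-coding transcripts, Mdm2-201 and Mdm2-202, together held 762 and 705 expected counts and 15.5 and 15.8 TPM, or 15.7 ± 0.198 TPM (SD, n = 2). Of these, Mdm2-202 had 63.8 expected counts in replicate 1 and 0 in replicate 2, with posterior SDs of 58.5 and 48.1 counts. Protein-coding Mdm2 thus stood at 41.8% and 39.6% of the gene's TPM. Counted this way Mdm2 moved behind Gadd45g, Phlda3 and Ccng1 in the order of mean levels, to position 8 of 10. Its range overlapped that of Ccng1, which had 21.37 TPM in replicate 1 but 15.55 TPM in replicate 2, against 15.82 TPM for Mdm2. Over transcripts with coding sequence, which add Mdm2-209, Mdm2 had 20.2 ± 5.49 TPM (SD, n = 2). That put it at position 7, ahead of Ccng1 at 18.5 TPM.

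Transcripts whose first exon overlaps exon 2 but not exon 1, Mdm2-206, Mdm2-207 and Mdm2-209, had 419 expected counts in replicate 1 and 50.4 in replicate 2. In replicate 1 most of these were on Mdm2-209. Mdm2-204, whose first exon overlaps neither exon, is outside both groups of starts, and had 86.2 and 238 expected counts. Mdm2-207, which begins upstream of the printed intron stretch and runs through its p53 elements, had 34.7 and 22.8 expected counts, or 4.66 and 3.36 TPM. Starts in exon 1 had 801 and 737 expected counts. Reads of 36 bases seldom reach a start, so these shares rest on how the authors' quantifier divided reads within shared exons.

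Mdm4 (chr1:132959484-133030561, minus strand) had 56.9 TPM in replicate 1 and 53.5 TPM in replicate 2, or 55.2 ± 2.35 TPM (SD, n = 2), from 3081 and 2536 expected counts. One transcript of 7105 bases, Mdm4-210, carried 89.8% and 88.5% of these counts. The same transcript was 42.9% and 40.6% of the gene's TPM, because short transcripts with few reads weigh heavily per length. Retained-intron transcripts of Mdm4 held 246 and 224 expected counts, yet 44.5% and 45.6% of the TPM. The protein-coding class alone gave 31.3 and 28.6 TPM, or 29.9 ± 1.90 TPM (SD, n = 2).

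Among transcripts that span exon 6 of Mdm4, printed above, nearly all expected counts were assigned to forms that keep the exon. These counts cover whole transcripts, mostly Mdm4-210, and reads over the exon or its junctions were not counted apart. The form that skips the exon, Mdm4-214, had 12.8 and 4.27 expected counts, with posterior SDs of 9.33 and 4.77 counts. The forms that include it had 2776 and 2251. Inclusion was 99.5% of the expected counts in replicate 1 and 99.3% in replicate 2, or 99.4% ± 0.137 (SD, n = 2). By TPM, which corrects for the greater length of Mdm4-210, inclusion was 98.8% and 97.8%, and the skipped form was 1.17% and 0.493%. A shortened version of the exon, in Mdm4-203, had 0 and 10.6 expected counts. The skipped form was 0.460% and 0.188% of the expected counts of all transcripts that span this exon, counted over their whole length.

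**Figure D2:**
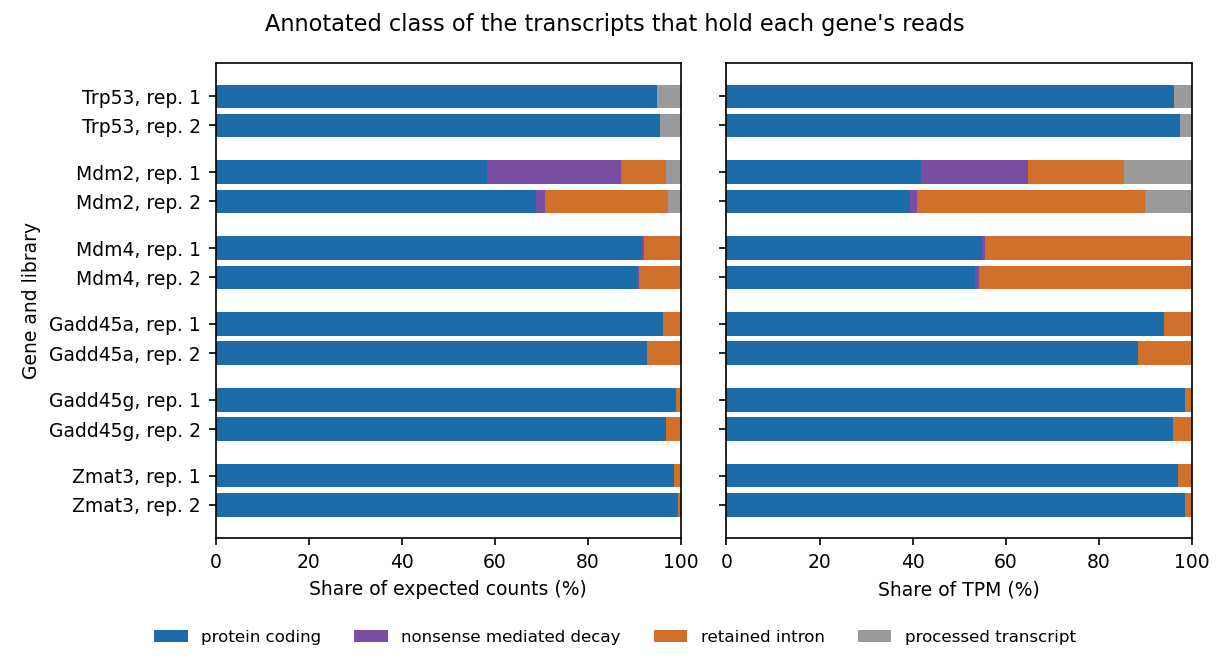
Share of each gene's expected counts (left) and of its TPM (right) by annotated transcript class, with 1 bar per gene and library (rep., replicate). For Mdm4 the retained-intron class takes 7.98% and 8.84% of the counts but 44.5% and 45.6% of the TPM, and for Mdm2 it takes 20.7% of the TPM in replicate 1 and 49.0% in replicate 2.

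The RNA levels of Trp53 and its restraints were set against each other as a log2 ratio within each library, which removes differences in depth. These ratios do not measure the balance of the proteins. Trp53 over Mdm2 was 2.79 in replicate 1 and 2.83 in replicate 2, or 2.81 ± 0.03 (SD, n = 2), a 7.02-fold higher level of Trp53. Trp53 over Mdm4 was 2.18 and 2.41, or 2.29 ± 0.16, which is 4.91-fold. Both ratios were larger among protein-coding transcripts alone, at 4.06 ± 0.10 for Trp53 over Mdm2 and 3.13 ± 0.21 for Trp53 over Mdm4 (SD, n = 2 each). Mdm2 over Mdm4 was -0.61 and -0.42, or -0.52 ± 0.14, so Mdm2 was the lower of the pair in both libraries. Among protein-coding transcripts it was -0.93 ± 0.11. By expected counts, which leave length out, Trp53 over Mdm2 was 2.67, Trp53 over Mdm4 was 1.40 and Mdm2 over Mdm4 was -1.27. The small SD of Trp53 over Mdm2 holds for TPM, where the average length assigned to Mdm2 differed between the libraries. The coding sequences of Mdm2-201 and Mdm4-210 were identical at 62.5% of their aligned bases.

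**Figure D3:**
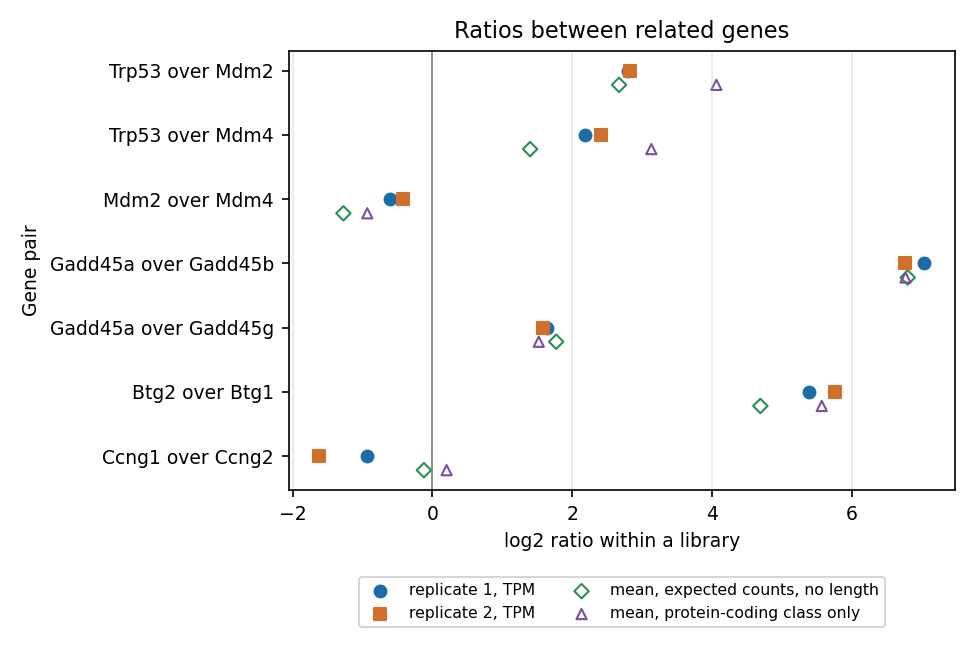
Log2 ratio of the first gene over the second within each library (circles, replicate 1; squares, replicate 2), with the mean by expected counts (diamonds) and over protein-coding transcripts (triangles). Every pair keeps its side of 0 under these measures except Ccng1 over Ccng2, at 0.20 over protein-coding transcripts and -1.28 over all.

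Among the targets, Btg2 (chr1:134075170-134079120, minus strand) had the highest level. The gene encodes an antiproliferative protein that binds the CCR4-NOT deadenylase. It reached 214 TPM in replicate 1 and 198 TPM in replicate 2, or 206 ± 11.2 TPM (SD, n = 2), and ranked 579 of 21474. It also had the most reads of the set in both libraries, 9279 and 7827 expected counts. A single transcript is listed for it, and all of its 36-base windows were unique to the gene. Its relative Btg1, another antiproliferative gene, had 5.11 and 3.66 TPM. The log2 ratio of Btg2 over Btg1 was 5.39 and 5.76, or 5.57 ± 0.26 (SD, n = 2), which is 47.5-fold.

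The GADD45 genes encode small stress-induced proteins that bind cell cycle and kinase partners, and the 3 paralogues stood far apart. Gadd45a (chr6:67035096-67037457, minus strand) had 86.8 and 78.2 TPM, or 82.5 ± 6.13 TPM (SD, n = 2). Gadd45g (chr13:51846678-51848468, plus strand) had 27.9 and 26.0 TPM, or 26.9 ± 1.34 TPM. Gadd45b (chr10:80930073-80932204, plus strand) was the member below the detection call, at 0.66 and 0.72 TPM from 13 expected counts in each library. Gadd45a is the paralogue known as a direct p53 target.

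The log2 ratio of Gadd45a over Gadd45g was 1.64 in replicate 1 and 1.59 in replicate 2, or 1.61 ± 0.04 (SD, n = 2). Gadd45a over Gadd45b was 7.04 and 6.76, or 6.90 ± 0.20, and with 1 TPM added to both genes it was 5.63. The coding sequences of the paralogues were identical at 66.9% of aligned bases for Gadd45a and Gadd45b, 68.5% for Gadd45a and Gadd45g, and 70.5% for Gadd45b and Gadd45g. No 36-base window was shared between them. Gadd45a shares 337 of its 1764 exon bases with E230016M11Rik, a gene on the opposite strand at 1.86 and 1.53 TPM, and whether the counting took strand into account is not stated. The coding transcript Gadd45a-201 held 94.1% and 88.5% of the gene's TPM, and Gadd45g-201 98.6% and 95.9%.

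Ccng1 (chr11:40748552-40755311, minus strand) encodes cyclin G1, a p53-induced cyclin that recruits the phosphatase PP2A to MDM2. It had 21.4 TPM in replicate 1 and 15.6 TPM in replicate 2, or 18.5 ± 4.12 TPM (SD, n = 2), from 1192 and 790 expected counts. All of these fell on 1 transcript. Its relative Ccng2, an unconventional cyclin, had 41.1 and 47.9 TPM, so that the log2 ratio of Ccng1 over Ccng2 was -0.94 and -1.62, or -1.28 ± 0.48 (SD, n = 2). That direction depends on Ccng2-204, a retained-intron transcript of 923 bases with 58.0% and 66.9% of the Ccng2 TPM. Over protein-coding transcripts the ratio was 0.34 and 0.07, or 0.20 ± 0.19.

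Phlda3 (chr1:135766119-135769136, plus strand) encodes a p53-induced repressor of AKT signalling that competes for membrane lipids. It had 21.6 and 19.4 TPM, or 20.5 ± 1.58 TPM (SD, n = 2), from 486 and 397 expected counts, all on 1 transcript. Its TPM range overlapped that of Ccng1, so these neighbours did not differ beyond their spread.

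Zmat3 (chr3:32334792-32366014, minus strand), also called Wig1, encodes a p53-induced zinc finger protein that binds RNA. It was the lowest of the detected members, at 5.23 and 5.59 TPM, or 5.41 ± 0.255 TPM (SD, n = 2), though its long transcripts gave 609 and 627 expected counts. Zmat3-201 held 64.8% and 68.4% of the TPM, and most of the rest lay on Zmat3-203, with 176 and 189 expected counts against 422 and 434 for Zmat3-201. The deposited posterior SD was 113 and 109 counts for Zmat3-203, and 113 and 110 counts for Zmat3-201. The split between these transcripts is therefore uncertain.

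Of the genes that act on p53, 12 of 13 listed kinases and activators were detected, with a median of 14.7 TPM. For this list and the next, the same call covered 41.2% of all protein-coding genes, and the lists were chosen with earlier results known. The highest were the kinase gene Hipk2 at 67.6 ± 9.77 TPM, the acetyltransferase genes Ep300 at 40.2 ± 1.72 TPM and Kat5 at 29.4 ± 0.205 TPM, and Trp53bp2, for a p53-binding protein, at 26.1 ± 0.141 TPM (SD, n = 2 each). Cdkn2a, whose ARF product inhibits MDM2, had 0 counts in both libraries. All 12 genes of the list of ubiquitin ligases and other restraints were detected, with a median of 39.97 TPM. The list also holds deubiquitinase genes that do not act on p53 as restraints alone, Usp10 among them. The corepressor gene Trim28 led them at 565 ± 46.2 TPM, followed by the ligase gene Huwe1 at 89.3 ± 6.89 TPM and by Usp10 at 77.1 ± 10.5 TPM, whose product removes ubiquitin from p53 and so stabilises it. Mdm4 and Mdm2 stood at positions 4 and 7 of these 12 genes.

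Ribosomal proteins that bind MDM2 link ribosome production to p53. All 6 listed genes were detected, against 41.2% of all protein-coding genes. Their median was 850 TPM, led by Rpl26 at 2560 ± 263 TPM and Rpl11 at 1299 ± 64.2 TPM (SD, n = 2 each). Rpl5 stood apart at 18.6 ± 6.597 TPM. Ribosomal protein genes have many near-identical pseudogenes, so their counts are uncertain.

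Other p53 targets were read beside the members. Of 16 genes of arrest and stress, 5 of them members, 11 were detected, with a median of 13.9 TPM. Of the 11 genes on this list that are not members, 6 were detected, with a median of 6.2 TPM. Cdkn1a, for the cyclin-dependent kinase inhibitor p21, had 113 TPM in replicate 1 and 121 TPM in replicate 2, between Btg2 and Gadd45a. Gtse1, for a p53-binding protein of the G2 and M phases, had 64.0 ± 3.97 TPM, and the sestrin genes Sesn1 and Sesn2 had 19.0 ± 0.863 and 16.2 ± 1.38 TPM (SD, n = 2 each). Plk2 had 0 counts in both libraries, while Plk3, Sfn, Ptpn14 and Gdf15 were between 0.025 and 0.72 TPM on average.

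Of 12 cell death targets 7 were detected, with a median of 10.6 TPM, led by Bax at 164 ± 1.29 TPM, Aen at 52.0 ± 1.26 TPM, Apaf1 at 30.3 ± 0.276 TPM and Ei24 at 28.5 ± 0.544 TPM (SD, n = 2 each). Fas, Perp and Pmaip1, which encode a death receptor, a membrane protein and the BH3 protein NOXA, had 0 counts in both. Of 14 targets in DNA repair and metabolism 11 were detected, with a median of 3.95 TPM, and 6 at a call of 5 TPM. Dcxr had 30.2 ± 4.30 TPM, Polh 18.9 ± 1.12 TPM and Ercc5 15.9 ± 1.33 TPM (SD, n = 2 each), and Ephx1 had 0 counts. Each of these 3 lists held at least 1 gene with 0 counts in both libraries. The detected share of each, 68.8%, 58.3% and 78.6%, stood beside 41.2% for all protein-coding genes. The share of 68.8%, for arrest and stress, includes the 5 members.

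**Figure D4:**
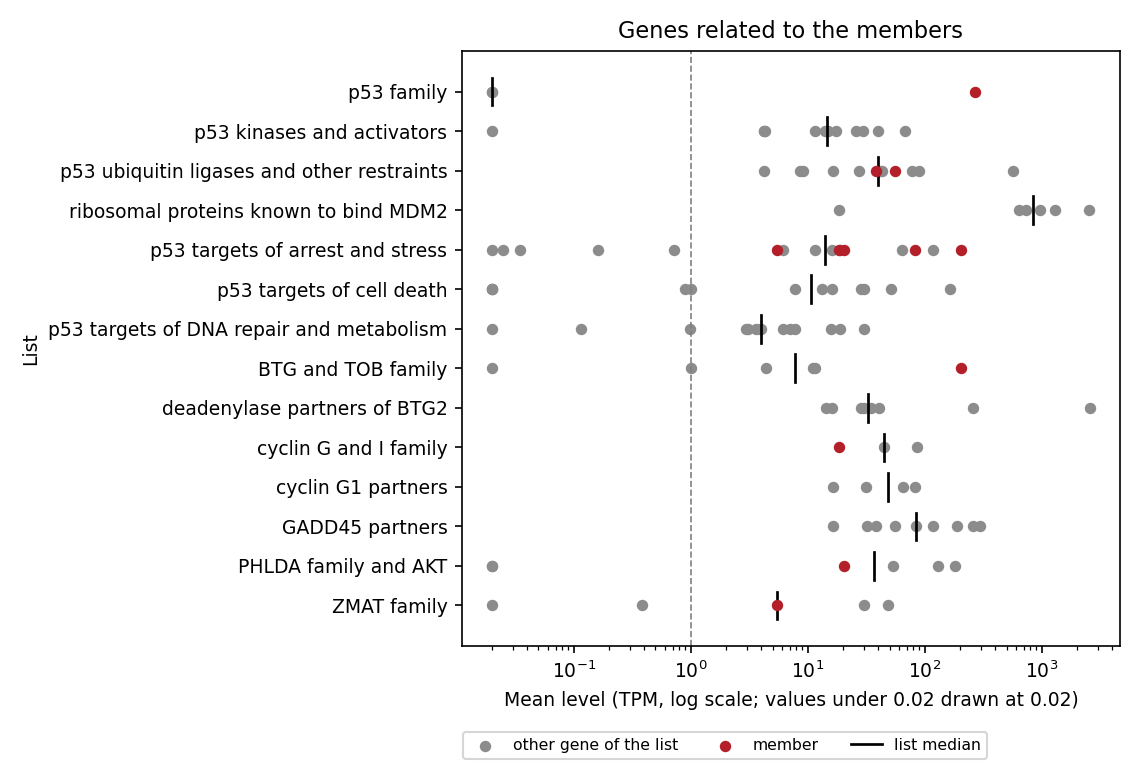
Mean level over both libraries of each gene in 14 lists, in TPM on a log scale, with members in red, other genes in grey, a black bar at the list median and a dashed line at 1 TPM. Btg2 is set far to the right of its family at 206 TPM, and Zmat3 is the list median of its family at 5.41 TPM.

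Partners and relatives of the targets were read beside the 41.2% of all protein-coding genes that the same call covered. Their lists, too, were chosen with earlier results of these data known. Of the BTG and TOB family 4 of 6 genes were detected, or 3 of 5 without Btg2. After Btg2 the next was Tob1 at 11.6 ± 0.276 TPM (SD, n = 2). All 8 deadenylase partners of BTG2 were detected, with a median of 32.5 TPM, led by the poly(A)-binding protein gene Pabpc1 at 2578 ± 11.7 TPM and by Cnot3 at 256 ± 23.8 TPM. All 9 GADD45 partners were detected, with a median of 84.2 TPM, led by Pcna, the replication clamp gene, at 297 ± 8.15 TPM and by the mitotic cyclin gene Ccnb1 at 260 ± 15.3 TPM. Cdk1, for the kinase that pairs with that cyclin, had 118 ± 16.3 TPM.

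All 4 listed partners of cyclin G1 were detected, including the kinase gene Gak at 82.4 ± 3.13 TPM and the PP2A catalytic gene Ppp2ca at 65.1 ± 6.31 TPM (SD, n = 2 each). The share of 41.2% over all protein-coding genes also stands beside this list and those that follow. The third gene of the cyclin G and I family, Ccni, had 85.6 ± 0.884 TPM. In the PHLDA and AKT list, 4 of 6 were detected, or 3 of 5 without Phlda3. Akt2 had 180 ± 28.8 TPM, Phlda1 130 ± 10.6 TPM and Akt1 53.9 ± 2.32 TPM, against 20.5 TPM for Phlda3. Phlda2 had 0 counts in both libraries. In the ZMAT family, 3 of 5 were detected, or 2 of 4 without Zmat3. Zmat3 was below Zmat2 at 48.5 ± 9.30 TPM and Zmat5 at 30.0 ± 1.73 TPM.

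The replicates differed little for these genes. Ccng1 alone, 1 of the 9 detected members, differed by over 25% in TPM (higher over lower), and 24.1% of the 10333 genes detected in both libraries did, 15.5% with the higher value in replicate 1. Ccng1 was 1.37-fold lower in replicate 2, a log2 difference of -0.46, and its CPM gave -0.46 with a 95% Clopper-Pearson interval of -0.59 to -0.33, which covers counting error only. The median size of the log2 difference was 0.11 over the 9 members and 0.17 over all detected genes. The 9 members had a median level of 38.6 TPM, against 20.8 TPM for detected protein-coding genes. No comparison with genes of like level was made. Of the 9 members 6 were higher in replicate 1 by TPM and 7 by CPM, the difference being Mdm2. Over all 10333 detected genes the same counts were 5159 by TPM and 5388 by CPM. For Gadd45b, with 13 counts in each library, the interval on the log2 scale ran from -1.09 to 1.36, so a difference of less than that size was not detectable at this depth.

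**Figure D5:**
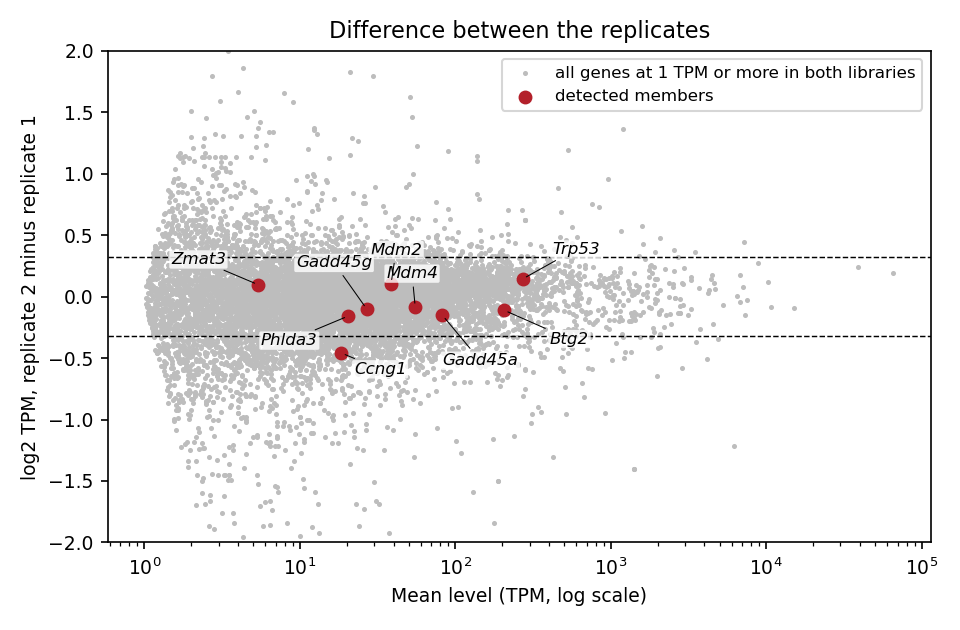
Log2 TPM of replicate 2 minus replicate 1 (vertical axis) against mean level in TPM on a log scale, for the 10333 genes detected in both libraries (grey) and the 9 detected members (red), with dashed lines at a difference of 25%. Ccng1 is the red point outside the lines, at -0.46, and 28 grey genes fall outside the axis limits of 2.

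Sequence overlap with other genes was small for most members. Ccng1, Btg2, Gadd45b, Gadd45g and Phlda3 had 100% of their 36-base transcript windows to themselves in GENCODE M21, and Zmat3 and Mdm2 had 98.4% and 98.3%. Trp53 had 91.7% unique windows, sharing others with the pseudogene Trp53-ps, and Mdm4 had 88.4%, with Mdm4-ps among the genes that share them. Gadd45a had 83.4%, all shared windows lying in the antisense gene named above.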

How the data were processed

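Polyadenylated RNA from 2 biological replicates of 1 line was sequenced, 1 library each, both in 1 group. The quantification used mm10 with GENCODE M4, per the deposited manifests. The sources used here name neither aligner nor quantifier, and do not say if strand was used. Per the file headers, the authors' tables give an expected count, a TPM, a posterior mean TPM, the percent of a gene's TPM on each transcript, and the posterior SD of each count, which is itself on the count scale. A difference of 35 between length and effective length corresponds to 36-base reads.

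Names and coordinates came from GENCODE M21 (GRCm38), which matched 42462 of 43346 Ensembl identifiers and all 46 transcripts, 43 at the same length. Means, SDs and ratios were computed in Python 3.11.15 on deposited TPM without a pseudocount. Scaling factors for the alternatives came from edgeR 4.0.16 in R 4.3.3 (TMM) and from median-of-ratios size factors. A gene was detected at 1 TPM in both libraries. A check on simulated counts, with counting error as the only noise, covered the CPM difference between libraries alone. The TPM levels and differences, ratios, transcript shares, exon events and motif searches were not checked in this way. The members and lists were chosen with earlier results of these data known. All members were named, with Cdkn1a, list genes under 1 TPM and up to 4 further genes per list by level. Counting intervals are 95% Clopper-Pearson and, like the floor of 3 counts, cover counting error only, since no molecular identifiers were used. Motif and window searches used RefSeq promoters and GENCODE transcripts. The values of some listed genes are not reported here.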

Additional observations from a re-analysis of the deposited data

How the results depend on the processing

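No paired analysis was possible because both libraries belong to 1 group. The number of members detected, of 10, was 9 at 1 TPM, 10 at 0.5 TPM and 9 at 5 TPM. It was also 9 by posterior mean TPM and in either library alone. The count differing by over 25% stayed at 1 with no filter beyond a count above 0, which could add Gadd45b alone. That count was not repeated under other scalings. With 2 libraries, leaving out either moves a mean by less than 1 SD by construction. Ccng1 over Ccng2 was the ratio that reversed: its log2 value of -1.28 was 0.20 over transcripts with coding sequence and 0.20 over the protein-coding class, since Ccng2-204 is then left out, and -0.12 by expected counts. Other log2 ratios kept their sign and moved as follows. By expected counts, which leave out length, Trp53 over Mdm2 was 2.67, Trp53 over Mdm4 1.40, Mdm2 over Mdm4 -1.27, Gadd45a over Gadd45g 1.77 and Btg2 over Btg1 4.69. Over transcripts with coding sequence, Trp53 over Mdm2 was 3.72, Trp53 over Mdm4 3.11 and Gadd45a over Gadd45g 1.52. Over the protein-coding class, chosen after the data were seen, they were 4.06, 3.13 and 1.52 in the same order, with Mdm2 over Mdm4 at -0.93. Trp53 over Mdm2 was 2.75 by posterior mean TPM and 2.78 with 1 TPM added, and that addition gave 5.63 for Gadd45a over Gadd45b and 5.27 for Btg2 over Btg1. The replicate difference of Mdm2 reversed, at -0.21 by TMM-scaled and -0.21 by size-factor-scaled counts. At 5 TPM the repair and metabolism list had 6 detected genes in place of 11. Of the 10 member levels, 3 lay lower by more than 1 SD over transcripts with coding sequence (Mdm2, Mdm4, Gadd45a) and 3 by posterior mean TPM (Mdm4, Btg2, Gadd45g). The share of Trp53 with the alternative end was 23.9% by expected counts. Levels under 1 TPM rest on few reads.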
